A study of Mus musculus with 13 samples.

Results

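The 46 genes described here are the standard readouts of a pair of linked stress programs in mammalian cells. They were chosen by name, with earlier results of these data known. The first set, called the ATF4 arm, holds 28 genes of the integrated stress response: regulators, enzymes of amino acid and folate metabolism, amino acid transporters and cytosolic tRNA synthetases. The second set, called the endoplasmic reticulum (ER) arm, holds 18 genes of the unfolded protein response. They are chaperones and folding enzymes, ER degradation genes, the ER stress sensor genes Atf6 and Ern1, and Xbp1, whose mRNA the Ern1 product splices. All 46 were found among the 35498 genes summed from the transcript tables, and all 46 passed the filter on low counts that left 13044 genes for testing.

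Gene expression was measured by sequencing of poly(A) RNA in 13 libraries of mouse melanoma cell lines in culture, with doxycycline in the medium to switch on a transgene. The series is about soluble adenylyl cyclase, an enzyme that makes cyclic AMP and is encoded by Adcy10, placed in chosen compartments of the cell. The lines titled NLS (numbers 6, 7 and 16) gave, by the labels, 3 libraries without doxycycline (t0), 3 after 6 h (t6) and 3 after 48 h (t48). Their compartment label is none at t0 and nuclear at t6 and t48. The lines titled LacZ (numbers 10 and 12) gave 2 libraries at t48 and 2 at t0. The LacZ t48 libraries also carry the nuclear compartment label, although their titles say LacZ; they are grouped here by title. The labels name neither the promoter of the transgene nor whether a line number stands for a clone or a pool. A p-value here measures the spread between libraries, since no label says that libraries of a group were grown apart beyond their line numbers.

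The libraries held 18512887 to 22584628 estimated reads. Levels are given in CPM (estimated reads scaled to a common library size, with TMM factors). Adcy10 itself did not follow the time labels. It lay at 181 to 371 CPM in all 6 libraries of NLS lines 6 and 7, t0 included, at 0.671 to 1.22 CPM in the 3 libraries of NLS line 16, and at 0 to 0.167 CPM in the LacZ lines. Time labels are therefore used below as names of the libraries. Of the 6 melanocyte markers, Mlana reached at most 0.0499 CPM, Sox10 at most 0.0512 CPM and Mitf 2.76 to 5.37 CPM. Of the 8 fibroblast markers the 3 collagen genes carried nearly all of the signal, with Col1a1 at 2560 to 6920 CPM, while Lum reached at most 0.0536 CPM, Thy1 at most 0.0942 CPM and Dcn 3.13 to 18.5 CPM. Summed over the marker lists, the 13 libraries lay at 3.24 to 5.86 CPM for melanocytes, 7130 to 17100 CPM for fibroblasts and 5.79 to 14.6 CPM for leukocytes. Their part in the results was not tested. Leukocyte genes Adgre1 and Cd3e and the endothelial gene Kdr were at 0 in all 13 libraries, while Cd68 of the leukocyte list lay at 5.64 to 14.1 CPM and Pecam1 of the endothelial list at 2.1 to 4.22 CPM.

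In the integrated stress response, kinases that sense amino acid shortage, ER stress, viral RNA or heme shortage phosphorylate the translation factor eIF2. General translation then falls, while the mRNA of the transcription factor ATF4 is translated more. ATF4 switches on genes that import and make amino acids and charge tRNAs, and with DDIT3 (CHOP) it also drives genes tied to prolonged stress. In the unfolded protein response, the ER sensors IRE1 (encoded by Ern1), ATF6 and PERK respond to unfolded proteins in the ER. IRE1 splices Xbp1 mRNA, ATF6 is cut to release a transcription factor, and both switch on ER chaperones and the machinery that removes misfolded proteins. Tumour cells, melanoma among them, are known to use both programs.

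Promoters of the members were read from RefSeq windows of GRCm38.p6 that run from 250 bases before to 50 bases after a gene's start. Windows were found for 24 genes of the ATF4 arm and 15 of the ER arm (none for Aldh1l2, Cth, Slc7a5, Wars, Atf6, Hyou1 and Manf). On both strands, 9 of the 24 ATF4 arm genes (37.5%) held the C/EBP-ATF response element that ATF4 binds with C/EBP partners, searched as TGATG, any base, AA. The share among all 27025 genes with a window was 4.51%. Among ER arm genes, Herpud1 was the 1 gene of 15 that held it. The ER stress response element, searched as CCAAT, 9 bases, CCACG on both strands, was in 6 of the 15 ER arm genes (40%), in 0 of the 24 ATF4 arm genes and in 0.137% of all genes. The CCAAT letters alone are also the site of the general factor NF-Y, and their own share was not counted. A match is a run of letters and was not tested for binding.

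The following stretches of 60 bases are shown because they carry these elements in genes whose levels are compared below, those that moved and those that did not. They run 5′ to 3′ on the strand of the gene. Capitals mark the element, which reads TT, any base, CATCA where it lies on the opposite strand. The Slc7a11 stretch also holds a match on the opposite strand, left in small letters.
Atf3, chr1:191183410-191183469, minus strand: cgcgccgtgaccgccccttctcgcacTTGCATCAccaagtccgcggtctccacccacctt
Trib3, chr2:152344013-152344072, minus strand: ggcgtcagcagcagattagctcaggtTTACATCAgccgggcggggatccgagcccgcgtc
Chac1, chr2:119351023-119351082, plus strand: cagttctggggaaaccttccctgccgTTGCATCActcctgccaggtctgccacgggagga
Vldlr, chr19:27216794-27216853, plus strand: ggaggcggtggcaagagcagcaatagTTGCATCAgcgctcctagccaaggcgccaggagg
Asns, chr6:7693199-7693258, minus strand: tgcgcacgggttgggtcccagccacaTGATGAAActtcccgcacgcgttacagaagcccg
Nupr1, chr7:126625547-126625606, minus strand: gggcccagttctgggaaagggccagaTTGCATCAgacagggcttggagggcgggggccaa
Slc7a11, chr3:50443646-50443705, minus strand: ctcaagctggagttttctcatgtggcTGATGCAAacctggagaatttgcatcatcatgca
Herpud1, chr8:94386291-94386350, plus strand: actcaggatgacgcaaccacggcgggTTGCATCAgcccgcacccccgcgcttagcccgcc

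The ER stress response element is shown in the next 3 stretches, with both of its outer parts in capitals. These are the genes with this element that rose between NLS t6 and t48. Creld2, Dnajc3 and Syvn1 also hold it, did not pass there and are not printed.
Hspa5, chr2:34772004-34772063, plus strand: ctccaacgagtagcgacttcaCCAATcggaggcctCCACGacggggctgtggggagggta
Hsp90b1, chr10:86705618-86705677, minus strand: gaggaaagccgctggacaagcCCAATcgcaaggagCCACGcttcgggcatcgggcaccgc
Pdia6, chr12:17266470-17266529, plus strand: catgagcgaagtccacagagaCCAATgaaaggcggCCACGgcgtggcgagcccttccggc

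**Figure D1:**
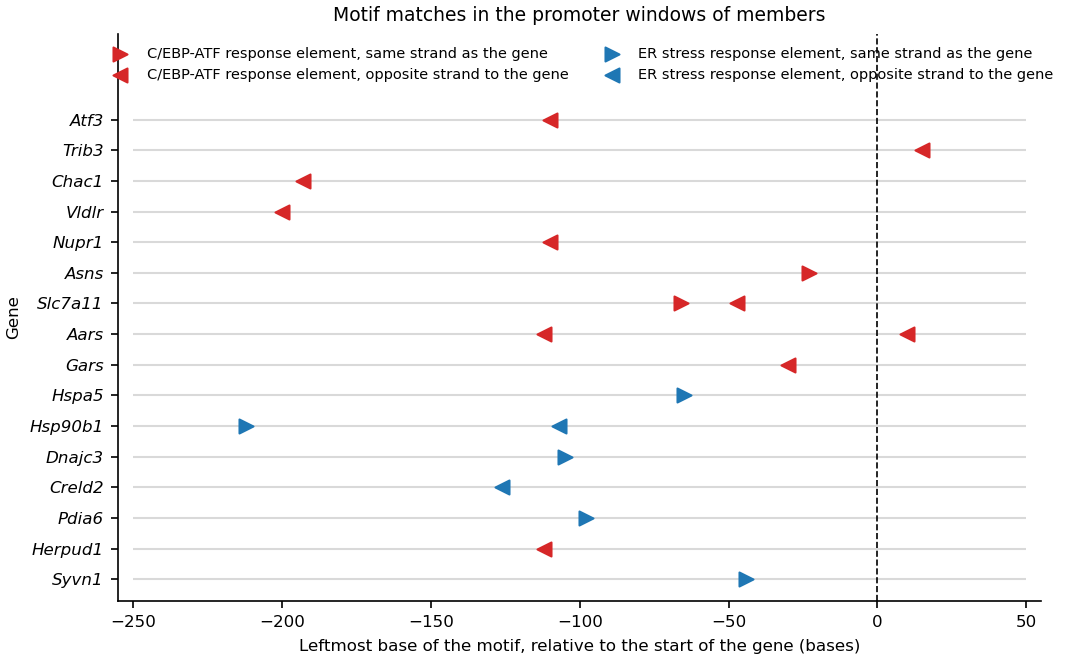
Position of each match of the C/EBP-ATF response element (red) and of the ER stress response element (blue) in the promoter windows of members, as the distance in bases from the start of the gene (dashed line). Triangles to the right mark matches on the strand of the gene. Of the 15 ER arm genes with a window, 6 hold the blue element, and of the 24 ATF4 arm genes 9 hold the red one.

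Per length of transcript, the most abundant members were Hspa5, which encodes the main ER chaperone BiP, with a mean of 963 TPM over 13 libraries, Hsp90b1, which encodes the ER chaperone GRP94, with 948 TPM, and Atf4 with 912 TPM. Their ranges over the libraries overlapped (842 to 1179 TPM, 855 to 1048 TPM and 677 to 1105 TPM), so their order is not fixed. The lowest means were 9.70 TPM for Slc7a11, the cystine transporter, and 9.76 TPM for Atf3, a stress-induced transcription factor. Reads were fewest for Atf3 (2.09 to 21.3 CPM) and Cebpb (2.29 to 6.70 CPM), a C/EBP factor, and their values are the least precise. Across all 13 libraries Trib3 lay between 61.5 and 130.3 CPM and Hsp90b1 between 1458 and 1869 CPM.

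Each gene was set against its own mean over the 13 libraries on the log2 CPM scale, and the median over the 28 genes of the ATF4 arm was taken per library. For NLS lines 6, 7 and 16 this median was 0.15, -0.13 and 0.15 at t0, then -0.09, -0.15 and -0.08 at t6, and 0.13, 0.09 and 0.17 at t48. In the LacZ lines (10 and 12) it was 0.02 and -0.00134 at t48, against -0.20 and 0.08 at t0. The t48 libraries of the NLS lines therefore lay above the t6 libraries in each line, while at t0 the library of line 7 lay near the t6 libraries. The ER arm medians of the NLS libraries spanned a narrower range, -0.12 to 0.09, and in each of the 3 lines t48 was highest and t6 lowest. The median over 11186 genes with at least 10 counts in every library stayed within -0.01 to 0.01.

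**Figure D2:**
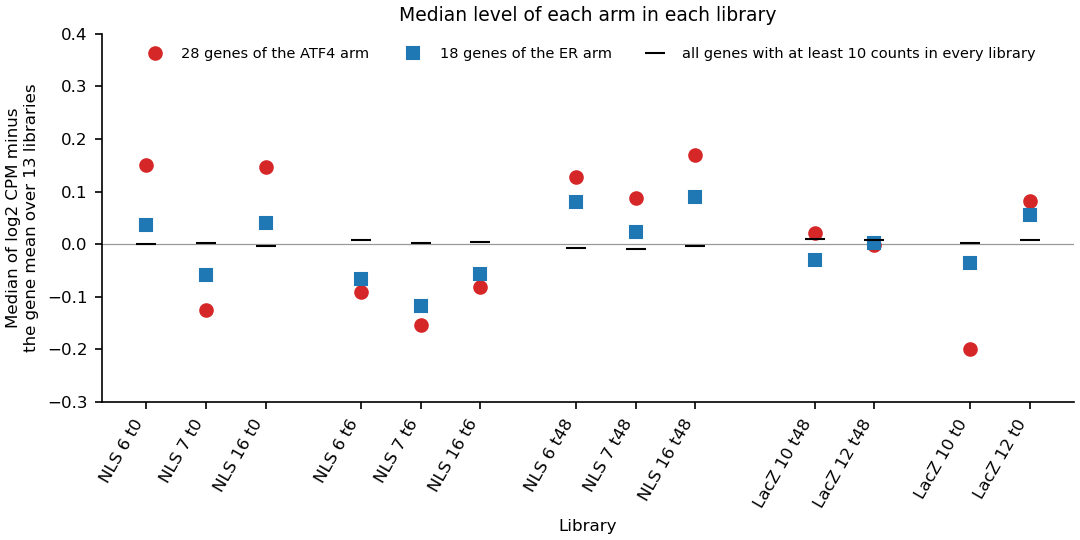
Median of the 28 ATF4 arm genes (red) and the 18 ER arm genes (blue) in each library, as log2 CPM minus the mean of the gene over 13 libraries. Black dashes give the same for 11186 genes. The NLS t48 medians of the ATF4 arm lie at 0.09 to 0.17 and the t6 medians at -0.15 to -0.08.

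**Figure D3:**
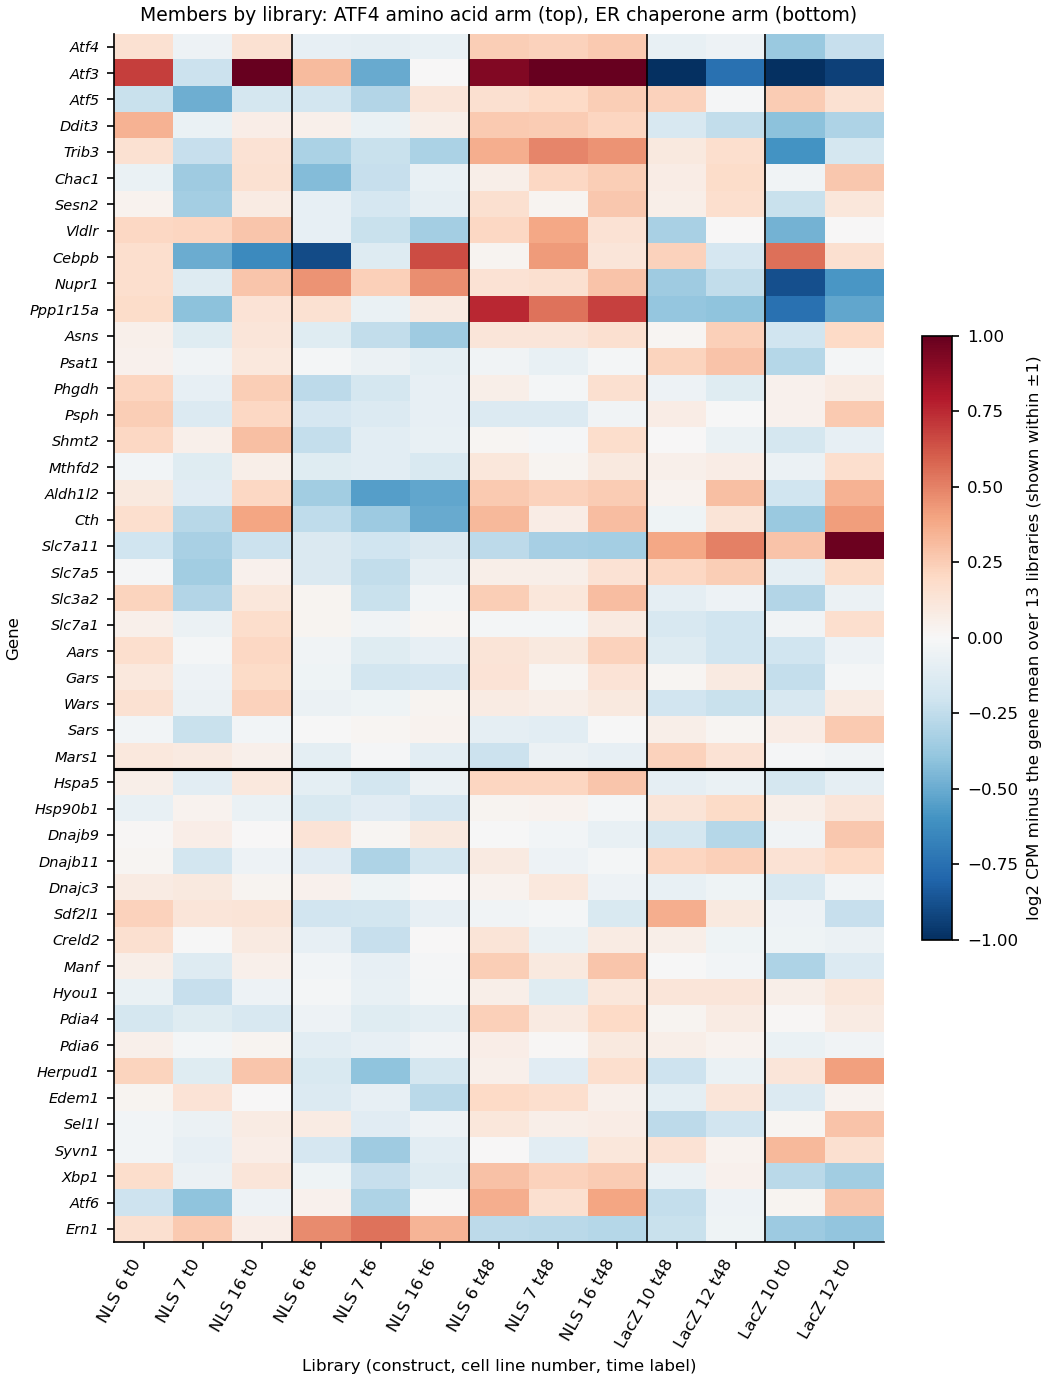
Level of each of the 46 members (rows) in each of the 13 libraries (columns), as log2 CPM minus the mean of the gene over 13 libraries, with colours cut at 1 and -1. The ATF4 arm is above the black line and the ER arm below it. Atf3 spans the widest range, from 2.09 to 21.3 CPM.

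The comparison of NLS t6 with t0 asks what had changed after 6 h of doxycycline by the labels. In the ATF4 arm 3 amino acid enzymes, 2 tRNA synthetases and 1 regulator fell. Of 28 genes 6 were lower (median log2 fold change of the arm -0.15) and 0 were higher by edgeR's quasi-likelihood test with Benjamini-Hochberg adjustment over all 13044 genes, at an adjusted p below 0.05. Over all genes 20.8% were called in either direction and 9.23% were called lower. With the cell line number as a block, 10 were lower and 1 was higher, where 34.7% of all genes were called.

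Aldh1l2, a mitochondrial enzyme of folate metabolism, fell to 350, 303 and 311 CPM at t6 in lines 6, 7 and 16, against 477, 412.5 and 514 CPM at t0. The log2 fold change was -0.54 ± 0.13 (SE, adjusted p = 0.0130), and the groups did not overlap. Overlap is described here and below for named genes only, and its share over all genes was not counted. Shmt2, the mitochondrial serine hydroxymethyltransferase, was at 406, 446.5 and 455 CPM at t6 and at 554, 495 and 590 CPM at t0, again without overlap (-0.33 ± 0.07, adjusted p = 0.00596). Phgdh, the first enzyme of serine synthesis, fell by 0.31 on the log2 scale (adjusted p = 0.0158). Its t6 libraries of 266.5, 283 and 302 CPM reached the lowest t0 library, line 7 at 302 CPM. All 8 amino acid enzymes had a fold change below 0 (median -0.28). The other 5 did not pass, among them Asns, asparagine synthetase, at -0.26 ± 0.10 (adjusted p = 0.0885; 0.00685 with the block), and Psph, the last enzyme of serine synthesis, at -0.24 ± 0.09 (adjusted p = 0.0677; 0.0365 with the block).

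Of the 11 regulators, Vldlr was the 1 that passed. This lipoprotein receptor gene, a known ATF4 target, fell to 128, 116 and 107 CPM at t6, against 157, 157 and 164 CPM at t0 (-0.45 ± 0.12, adjusted p = 0.0212). Atf4 itself was at 903, 901 and 908 CPM at t6 and at 1064, 926 and 1062 CPM at t0 (-0.17 ± 0.06, adjusted p = 0.0514; 0.00858 with the block). Nupr1, a small stress-induced chromatin protein, had a fold change of 0.27 ± 0.10 (adjusted p = 0.0829; 0.00125 with the block). None of the 4 transporters passed by edgeR or DESeq2, and 0 of them had an unadjusted p below 0.05. Of the 5 tRNA synthetases, Aars (alanyl-tRNA synthetase) fell by 0.20 and Gars (glycyl-tRNA synthetase) by 0.21 on the log2 scale, with adjusted p = 0.0428 and adjusted p = 0.0497. Mars1, methionyl-tRNA synthetase, was at -0.15 ± 0.05 (adjusted p = 0.0549; 0.0101 with the block).

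In the ER arm 4 of 18 genes passed between t6 and t0, 3 lower and 1 higher, with a median of -0.10. Of all genes 20.8% were called, 9.23% lower and 11.6% higher. Sdf2l1, a cofactor of BiP, was at 14.7, 14.8 and 15.8 CPM at t6 and at 19.7, 18.2 and 18.4 CPM at t0, with no overlap (-0.31 ± 0.09, adjusted p = 0.0240). Herpud1, an ER degradation component, fell by 0.38 on the log2 scale (adjusted p = 0.0381), and Xbp1 by 0.21 (adjusted p = 0.0381). Ern1, the gene of IRE1, was the 1 that rose. It was at 97.4, 102 and 88.9 CPM at t6 and at 78.2, 84.0 and 73.3 CPM at t0, all 3 t6 libraries above all 3 t0 libraries (0.29 ± 0.07, adjusted p = 0.00845). The block took the count to 11, with 9 lower and 2 higher, where 34.7% of all genes were called. Added were Hspa5, Hsp90b1, the co-chaperone gene Dnajb11, Creld2, Edem1 and Syvn1 on the lower side and Atf6 on the higher side, with blocked adjusted p of 0.00119 to 0.0339.

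These counts rest on few libraries. Without the t0 library of line 7, 13 genes of the ATF4 arm and 6 of the ER arm passed, beside 21.7% of all genes. Without any other single library 3 or 4 and 1 or 2 passed, beside 14.3 to 16.3% of all genes. Without line 6 as a whole 0 and 0 passed, beside 7.71% of all genes, with 7 and 4 at an unadjusted p below 0.05. Only lines 6 and 16 were left out as a whole, and line 7 was not. Shmt2, Aldh1l2 and Ern1 were called in every fit that left out 1 library, and the other 7 lost their call in 3 to 5 of 6 such fits. The summed level of the 8 fibroblast markers was 10000 to 12200 CPM at t0, 7790 to 9440 CPM at t6 and 16000 to 17100 CPM at t48 of the NLS lines, and, like the medians of both arms, was higher at t48 than at t6. Its part in the results was not tested. In bulk RNA, fewer cells of a kind and less RNA per cell cannot be told apart.

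Between NLS t48 and t6 more members were called than in the other comparisons of the NLS time labels. In the ATF4 arm 14 of 28 genes rose and 0 fell (edgeR quasi-likelihood test, Benjamini-Hochberg), with a median log2 fold change of 0.24 beside 0.00 over all genes. Of all genes 28.2% were called and 14.6% were called higher. Of the 18 ER arm genes 9 rose and 1 fell (median 0.18). With the block 19 rose and 1 fell in the ATF4 arm and 12 rose and 1 fell in the ER arm, where 41.2% of all genes were called. In every one of the 3 lines, 21 ATF4 arm genes and 13 ER arm genes were higher at t48 than at t6, and 3 and 2 were lower in every line. The share of all genes with the same direction in every line was not counted.

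Of the 11 regulators 7 rose: Atf4, Atf3, Atf5, Trib3, Chac1, Vldlr and Ppp1r15a. Atf4 was at 1133, 1122 and 1148 CPM at t48 in lines 6, 7 and 16, against 903, 901 and 908 CPM at t6, with little spread in either group (0.33 ± 0.06, adjusted p = 0.000882). Trib3, which encodes a pseudokinase that dampens ATF4 and AKT, was at 120, 130.3 and 127 CPM at t48 and at 75.0, 79.7 and 74.7 CPM at t6 (0.72 ± 0.11, adjusted p = 0.000393). Ppp1r15a encodes GADD34, the subunit that directs a phosphatase to eIF2 and so ends the response. It was at 71.3, 61.4 and 67.7 CPM at t48 and at 46.8, 40.4 and 45 CPM at t6 (0.60 ± 0.13, adjusted p = 0.00420). None of these 3 genes overlapped between the groups, and the share of all genes without overlap was not counted. Each of these 3 was called in every fit that left out 1 library, as were Vldlr and Aldh1l2.

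Atf3 had the largest fold change of the members, 1.16 ± 0.33 (adjusted p = 0.0232), from 14.8, 15.6 and 21.3 CPM at t48 against 9.74, 5.495 and 7.81 CPM at t6. Its call did not survive 3 of the 6 fits with a library removed (highest adjusted p 0.0814, without the t6 library of line 7). Atf5, an ATF4 relative, rose by 0.31 (adjusted p = 0.0460), Chac1, a glutathione-degrading enzyme, by 0.41 (adjusted p = 0.0320) and Vldlr by 0.46 (adjusted p = 0.0128). Ddit3, the gene of CHOP, was at 73.7, 73.2 and 71.5 CPM at t48 and at 63.7, 58.7 and 63.8 CPM at t6. It did not pass (0.23 ± 0.09, adjusted p = 0.0617; 0.0125 with the block). Sesn2, a leucine-sensing stress protein, had 0.27 ± 0.11 (adjusted p = 0.0885; 0.00288 with the block). Cebpb and Nupr1 had 0.19 and -0.19, and the block called Nupr1 lower (adjusted p = 0.0135).

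Of the 8 amino acid enzymes 5 rose between t6 and t48, and all 8 fold changes were above 0. Aldh1l2 was at 533, 522 and 530.1 CPM at t48 and at 350, 303 and 311 CPM at t6 (0.72 ± 0.13, adjusted p = 0.00176). Asns was at 295, 294 and 303 CPM at t48 and at 249, 227 and 212 CPM at t6 (0.37 ± 0.10, adjusted p = 0.0138). Cth, which makes cysteine from cystathionine, was at 37.1, 31.2 and 36.7 CPM at t48 and at 24.8, 23.1 and 20.9 CPM at t6. Its fold change of 0.61 ± 0.20 (adjusted p = 0.0449) did not survive any of the 6 fits with a library removed. Phgdh rose by 0.24 (adjusted p = 0.0399) and Mthfd2, a mitochondrial folate enzyme, by 0.20 (adjusted p = 0.0281). The other 3 enzymes did not pass. Shmt2 was at 485, 477 and 541 CPM at t48 and at 406, 446.5 and 455 CPM at t6, without overlap (0.20 ± 0.07, adjusted p = 0.0504; 0.00446 with the block). Psat1 had a fold change of 0.01 (95% interval -0.12 to 0.15), with 549, 535 and 556 CPM at t48 and 556, 539 and 527 CPM at t6. Psph had 0.02 ± 0.09 (adjusted p = 0.882).

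Among the transporters 0 of 4 passed by edgeR. By DESeq2 2 were called, 2 had an unadjusted p below 0.05, and the block called the same number. Those were Slc7a5, the leucine transporter LAT1 (0.25 ± 0.09, adjusted p = 0.0664; 0.00553 with the block), and its partner Slc3a2, the heavy chain 4F2hc (0.29 ± 0.12, adjusted p = 0.0906; 0.00181 with the block). Slc7a11 lay at 34.9, 33.3 and 33.0 CPM at t48 and 37.9, 36.4 and 37.8 CPM at t6 (-0.15, 95% interval -0.43 to 0.13). Of the synthetases, Aars rose by 0.23 (adjusted p = 0.0156) and Gars by 0.23 (adjusted p = 0.0290). Wars, Sars and Mars1 did not pass.

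**Figure D4:**
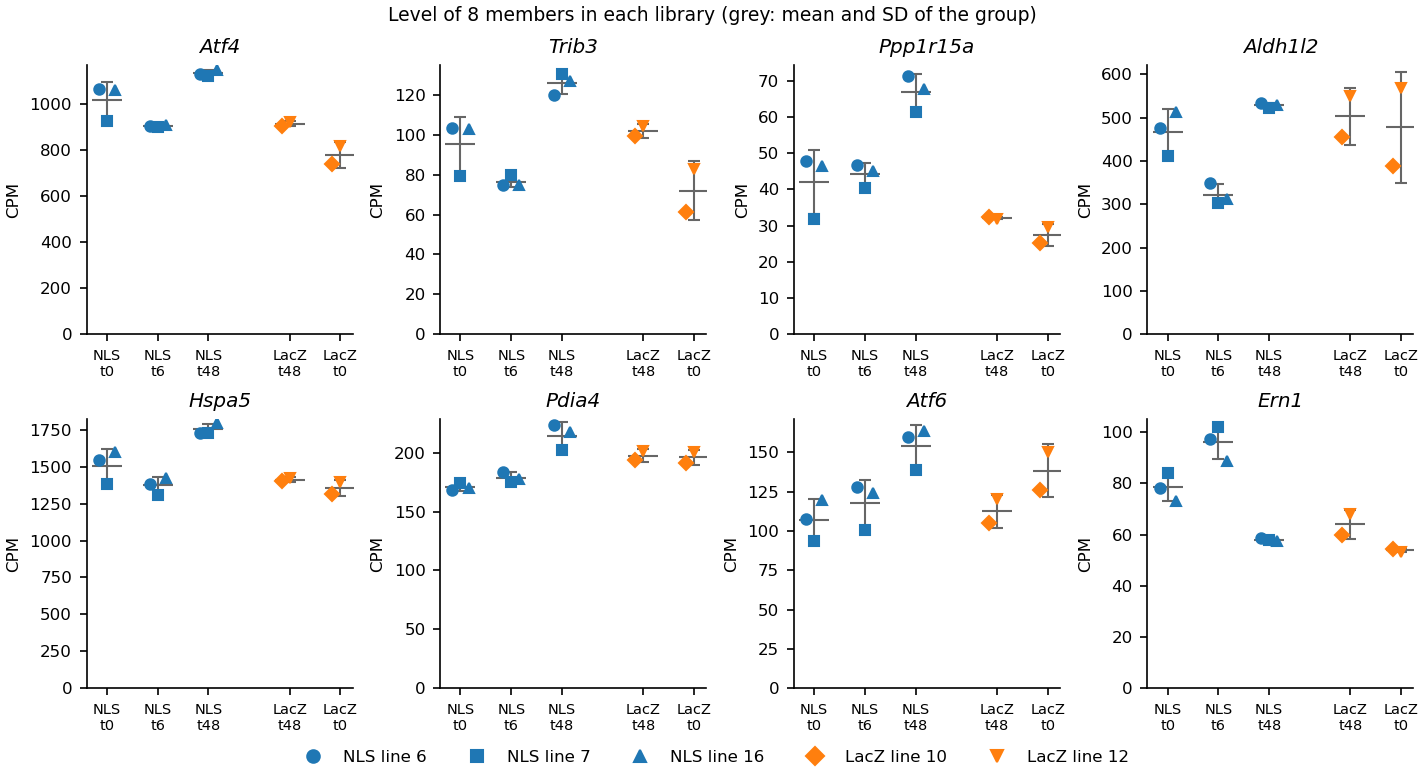
Level in CPM of 4 ATF4 arm genes (top) and 4 ER arm genes (bottom) in each library, by group. Symbols mark the cell line, and grey bars the mean and SD of the group (n = 3 for NLS, n = 2 for LacZ). Each gene except Ern1 is higher at NLS t48 than at t6 in all 3 lines, and Ern1 is lower.

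In the ER arm, 6 of 11 chaperones and folding enzymes rose between t6 and t48. Hspa5 was at 1731, 1731 and 1799 CPM at t48 and at 1387, 1309 and 1427 CPM at t6, all t48 libraries above all t6 libraries (0.35 ± 0.06, adjusted p = 0.000524). Pdia4, a protein disulfide isomerase, was at 224, 202 and 218 CPM at t48 and at 184, 175 and 178 CPM at t6 (0.26 ± 0.05, adjusted p = 0.00157). Hsp90b1 rose by 0.16 (adjusted p = 0.0222), Dnajb11 by 0.21 (adjusted p = 0.0315), the secreted ER protein gene Manf by 0.25 (adjusted p = 0.0149) and the disulfide isomerase gene Pdia6 by 0.13 (adjusted p = 0.0409). The other 5, Dnajb9, Dnajc3, Sdf2l1, Creld2 and Hyou1, had -0.12 to 0.15. Of the 4 degradation genes, Edem1, which draws misfolded glycoproteins to disposal, rose by 0.30 (adjusted p = 0.00843). Herpud1 had 0.28 (adjusted p = 0.0945; 0.000198 with the block) and Syvn1, the ubiquitin ligase HRD1, 0.21 (adjusted p = 0.0708; 0.00280 with the block).

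Xbp1 and the sensor genes Atf6 and Ern1 all changed, in unlike directions. The gene of PERK was not among the members. Xbp1 was at 148, 142 and 144 CPM at t48 and at 118, 103 and 111 CPM at t6 (0.39 ± 0.07, adjusted p = 0.000734). Atf6 was at 159.8, 139 and 164 CPM at t48 and at 128, 100.4 and 124 CPM at t6 (0.39 ± 0.12, adjusted p = 0.0239). Ern1 fell to 58.5, 58.0 and 57.5 CPM at t48, against 97.4, 102 and 88.9 CPM at t6 (-0.73 ± 0.07, adjusted p = 4.66e-06). Of the 10 calls of the ER arm, those of Hspa5, Pdia4, Edem1, Xbp1 and Ern1 held in every fit that left out 1 library. Atf6 lost its call in 3 of 6 such fits (highest adjusted p 0.0868, without the t6 library of line 7).

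The Xbp1 value is the gene's total. The deposited transcript set assigned 95.1 to 98.1% of its reads to the model Xbp1-201, and none of its 4 models separates the mRNA that IRE1 has spliced in the cytosol, so splicing was not measured. Atf4 protein and eIF2 phosphorylation were not measured either.

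With single libraries left out, 6 to 12 genes of the ATF4 arm and 5 to 10 of the ER arm were called between t48 and t6. Of all genes 21.7 to 25.6% were called in those fits, beside 28.2% in the main fit. The lowest counts were 6 without the t48 library of line 16 or the t6 library of line 7, and 5 without the t48 library of line 6. Of the 24 calls, 10 held in every such fit, and the other 14 were lost in 1 to 6 of 6. Leaving out all libraries of a line, t0 included, gave 6 and 5 without line 16 and 4 and 4 without line 6. Of all genes 19% and 15.8% were called there.

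The promoter elements can be set beside these calls as a description. Of the 9 ATF4 arm genes with the C/EBP-ATF response element, 7 rose between t6 and t48 (Aars, Asns, Atf3, Chac1, Gars, Trib3 and Vldlr), and the others, Nupr1 and Slc7a11, had fold changes of -0.19 and -0.15. Of the 15 genes whose window did not hold it, 5 rose, beside 14.6% of all genes called higher. Between NLS t48 and t0, 1 of the 9 with the element and 2 of the 15 without it rose. Between LacZ t48 and t0, 2 of the 9 and 3 of the 15 rose, and between NLS t6 and t0, 3 of the 9 and 2 of the 15 fell. Of the 6 ER arm genes with the ER stress response element, Hspa5, Hsp90b1 and Pdia6 rose, and of the 9 without it 4 rose and 1 fell. Herpud1, whose window held the C/EBP-ATF element, did not pass.

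**Figure D5:**
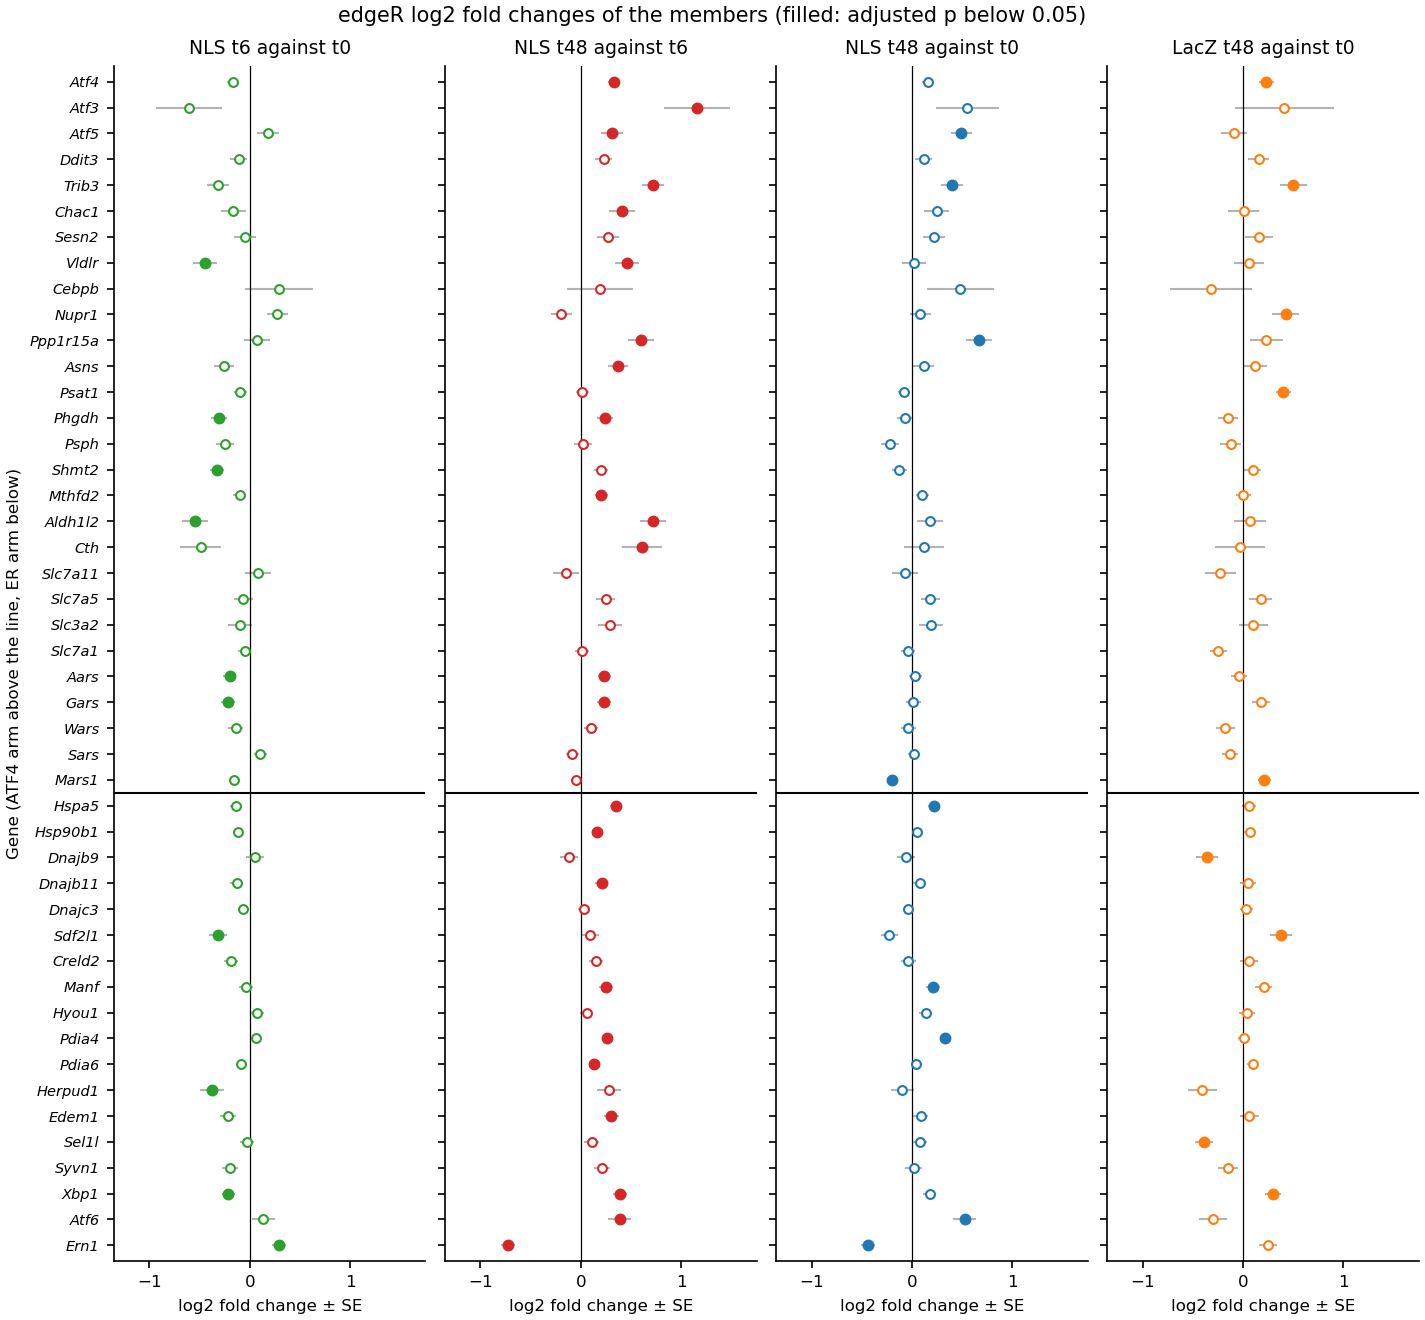
Log2 fold change (points) and SE (bars) of the 46 members in 4 comparisons, by edgeR, with filled points for adjusted p below 0.05. Between NLS t48 and t6, 23 filled points lie right of 0 and 1, Ern1, left of it. The 3 NLS comparisons share libraries.

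Across the whole interval, NLS t48 against t0, fewer members differed. In the ATF4 arm 3 of 28 rose and 1 fell, beside 26.1% of all genes called and 14.8% called higher, and in the ER arm 4 of 18 rose and 1 fell. The medians were 0.11 and 0.06. This comparison shares its libraries with the other comparisons of the NLS lines and adds no separate sample. With the block, 7 rose and 1 fell in the ATF4 arm and 6 rose and 2 fell in the ER arm, where 39.8% of all genes were called.

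The ATF4 arm genes called higher at t48 than at t0 were Ppp1r15a, Atf5 and Trib3, where 14.8% of all genes were called higher. Ppp1r15a was at 71.3, 61.4 and 67.7 CPM at t48 and at 47.9, 31.7 and 46.4 CPM at t0 (0.67 ± 0.13, adjusted p = 0.00239). Atf5 was at 191, 197 and 202 CPM at t48 and at 146, 122 and 152 CPM at t0 (0.49 ± 0.11, adjusted p = 0.00493). Neither gene overlapped between the groups, and the share of all genes without overlap was not counted. Trib3 rose by 0.40 (adjusted p = 0.0164) and its t48 libraries, 120 to 130.3 CPM, lay above those at t0, 79.2 to 103 CPM. Mars1 fell by 0.20 on the log2 scale (adjusted p = 0.0135), to 170.4, 190.4 and 187 CPM at t48 against 213, 210.3 and 205 CPM at t0. None of the 8 enzymes passed by edgeR or DESeq2, and 1 had an unadjusted p below 0.05. Atf4 had 0.16 ± 0.06 (adjusted p = 0.0619; 0.0107 with the block). Sesn2 (0.22), Slc7a5 (0.18) and Slc3a2 (0.19) passed with the block only, at adjusted p of 0.00978 to 0.0259.

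In the ER arm Hspa5 (0.22 ± 0.06, adjusted p = 0.0141), Manf (0.21 ± 0.07, adjusted p = 0.0363), Pdia4 (0.33 ± 0.05, adjusted p = 0.000368) and Atf6 (0.53 ± 0.12, adjusted p = 0.00552) rose. Atf6 was at 159.8, 139 and 164 CPM at t48 and at 108, 93.8 and 119.9 CPM at t0. Ern1 fell, to 58.5, 58.0 and 57.5 CPM against 78.2, 84.0 and 73.3 CPM at t0 (-0.44 ± 0.07, adjusted p = 0.000409). With the block only, Xbp1 (0.18) and Hyou1 (0.14), a large ER chaperone, were higher and Sdf2l1 (-0.22) lower, at adjusted p of 0.00465 to 0.0294. Calls of Ppp1r15a, Atf5, Pdia4, Atf6 and Ern1 held in every fit that left out 1 library. Those of Trib3, Hspa5 and Manf were lost without the t48 library of line 16 (adjusted p = 0.0536, 0.0688 and 0.153), and that of Mars1 without the t48 library of line 6 (adjusted p = 0.0629). Without the t48 library of line 16 the ER arm count was 3, where 20.5% of all genes were called, beside 26.1% in the main fit. The 3′ ends of Mars1 and Ddit3 overlap on opposite strands, so reads there may belong to either gene.

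The LacZ lines show how the members differ between t48 and t0 in the control lines. In the ATF4 arm 5 of 28 rose and 0 fell (median 0.08), beside 18.5% of all genes called and 8.68% called higher. Of the ER arm genes 2 rose and 2 fell (median 0.06). With the block the counts were 6 higher and 1 lower in the ATF4 arm and 4 higher and 4 lower in the ER arm, where 33.0% of all genes were called. Psat1, phosphoserine aminotransferase, was at 657 and 686 CPM at t48 in lines 10 and 12 and at 462 and 555 CPM at t0 (0.40 ± 0.08, adjusted p = 0.00330). Atf4 was at 907 and 923 CPM at t48 and at 739 and 818 CPM at t0 (0.23 ± 0.07, adjusted p = 0.0350). Neither gene overlapped between the groups, which says little with 2 libraries in each. The share of all genes without overlap was not counted. Trib3 rose by 0.50 (adjusted p = 0.0226), Nupr1 by 0.42 (adjusted p = 0.0397) and Mars1 by 0.21 (adjusted p = 0.0377).

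Among ER arm genes of the LacZ lines, Xbp1 rose to 116 and 125 CPM at t48, against 100.6 and 95.2 CPM at t0 (0.30 ± 0.08, adjusted p = 0.0226), and Sdf2l1 rose by 0.38 (adjusted p = 0.0291). Sel1l, the scaffold of the HRD1 degradation complex, fell to 130.2 and 137 CPM, against 158 and 191 CPM at t0 (-0.39 ± 0.09, adjusted p = 0.00885). Dnajb9, a co-chaperone that holds IRE1 in check, fell by 0.36 on the log2 scale (adjusted p = 0.0406). Herpud1 was at 68.8 and 76.0 CPM at t48 and at 86.3 and 106 CPM at t0 (-0.41 ± 0.14, adjusted p = 0.0680; 8.63e-05 with the block). Atf6 (-0.30), Ern1 (0.25) and Manf (0.21) of the ER arm, and the arginine transporter gene Slc7a1 (-0.25) and Gars (0.18) of the ATF4 arm, also passed with the block only. Psat1 alone of the 9 calls held in every fit that left out a library, and the others were lost in 2 to 4 of 4 such fits. Each such fit left 1 library in a LacZ group, and fewer members and fewer of all genes were called in it.

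The t48 responses of the NLS and LacZ lines were compared directly by an interaction. Of 28 ATF4 arm genes 3 differed, Atf5, Psat1 and Mars1, and of 18 ER arm genes 5 differed, Sdf2l1, Pdia4, Sel1l, Atf6 and Ern1, beside 23.3% of all genes. With the block 7 and 6 differed, where 37.4% of all genes were called. The added genes were Nupr1 (-0.34), Ppp1r15a (0.44), Shmt2 (-0.22), Slc7a1 (0.21) and Herpud1 (0.31), at blocked adjusted p of 0.00454 to 0.0416. Atf4, Trib3 and Xbp1, which passed in the LacZ lines between t48 and t0, had differences of -0.08, -0.10 and -0.12 between the responses and did not pass. For Atf4 the 95% interval was -0.27 to 0.12. Psat1 had -0.08 in the NLS lines, where it did not pass, and 0.40 in the LacZ lines (difference -0.48 ± 0.10, adjusted p = 0.00382). Atf6 rose in the NLS lines (0.53) and had -0.30 in the LacZ lines, a difference of 0.82 ± 0.18 (adjusted p = 0.00692). Ern1 fell in the NLS lines (-0.44) and had 0.25 in the LacZ lines, a difference of -0.69 ± 0.11 (adjusted p = 0.000649). The LacZ libraries of Ern1 were at 59.97 and 67.9 CPM at t48 and at 54.4 and 53.3 CPM at t0. The ER arm count fell without the t48 library of LacZ line 10 or the t0 library of LacZ line 12, as did the count over all genes. Each of those fits left 1 library in a LacZ group.

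The libraries labelled t0 were also compared between the constructs. Between NLS t0 and LacZ t0, 10 of 28 ATF4 arm genes were higher and 3 lower, and 4 of 18 ER arm genes were higher and 5 lower. Of all genes 43.5% were called, 21.1% higher and 22.4% lower. The construct and the cell line cannot be told apart here, since each line carries 1 construct. Of the 11 regulators 7 were higher in the NLS lines. Nupr1 was at 179, 145 and 193 CPM in NLS lines 6, 7 and 16 and at 86.4 and 106 CPM in LacZ lines 10 and 12 (0.84 ± 0.12, adjusted p = 0.000118). Atf3 was at 12.6, 6.72 and 15.9 CPM in NLS and at 2.09 and 4.10 CPM in LacZ (1.91 ± 0.42, adjusted p = 0.00438). Atf4 (0.39), Ddit3 (0.48), Trib3 (0.40), Vldlr (0.45) and Ppp1r15a (0.62) were also higher, and Atf5 was lower (-0.49). None of the genes given with levels overlapped between the groups, and the share of all genes without overlap was not counted.

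Slc7a11 differed most in the other direction. It was at 36.5, 33.5 and 36.0 CPM in NLS t0 and at 51.1 and 82.3 CPM in LacZ t0 (-0.92 ± 0.14, adjusted p = 0.000185), and in all 9 NLS libraries it stayed at 33.0 to 37.9 CPM, below the 4 LacZ libraries. The 2 matches of the C/EBP-ATF element in this promoter are on opposite strands. Both lie in the stretch printed above, where only the first is in capitals. Shmt2 (0.32), Psat1 (0.18) and Aars (0.25) were higher in NLS, and Sars, seryl-tRNA synthetase, lower (-0.26). The call of Psat1 lay at the threshold (adjusted p = 0.05), which Gars missed (0.21, adjusted p = 0.0505). Among ER arm genes, Ern1 was at 78.2, 84.0 and 73.3 CPM in NLS and at 54.4 and 53.3 CPM in LacZ (0.54 ± 0.08, adjusted p = 8.01e-05). Xbp1 was higher (0.39, adjusted p = 0.000993) and Atf6 lower (-0.37, adjusted p = 0.0338). Sdf2l1 (0.30) and Manf (0.22) were higher, and Dnajb11 (-0.25), Hyou1 (-0.20), Pdia4 (-0.20) and Syvn1 (-0.25) were lower. Calls of Atf4, Atf3, Ddit3, Nupr1, Slc7a11, Xbp1 and Ern1 held in every fit that left out 1 library, and the other 15 were lost in 1 to 4 of 5 such fits. Without the t0 library of NLS line 6 the ER arm count was 4, where 38.7% of all genes were called. Leaving out either LacZ t0 library left 1 in that group, and fewer members and fewer of all genes were called.

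Cell lines were also compared within each construct at matched time labels, with the time label as a block. Between NLS lines 6 and 16, whose Adcy10 levels lie far apart, 0 of 46 members passed by edgeR or DESeq2, and 4 had an unadjusted p below 0.05. Of all genes 2.26% were called. The members' log2 fold changes lay between -0.27 and 0.11. More members differed between NLS line 7 and the other NLS lines. Against line 16, 8 of 28 ATF4 arm genes and 7 of 18 ER arm genes were lower and 1, Edem1, was higher, beside 22.6% of all genes called and 10.8% called lower. Against line 6, 2 and 5 were lower, beside 11.1% of all genes called and 5.19% called lower, and 39 of 46 members did not pass. Without the time block 0 members were called in either comparison by edgeR.

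Herpud1 and Atf6 were lower in line 7 against both lines and in every fit that left out 1 library. Herpud1 had -0.30 against line 16 (adjusted p = 0.000327) and -0.25 against line 6 (adjusted p = 0.00327). At t0, t6 and t48 it was at 72.9, 60.03 and 73.6 CPM in line 7, at 96.3, 70.3 and 89.2 CPM in line 16 and at 92.7, 71.4 and 82.3 CPM in line 6. Atf6 had -0.30 against line 16 and -0.25 against line 6 (adjusted p = 0.000169 and adjusted p = 0.00181). Slc3a2 was lower in line 7 against both (-0.26 and -0.30), and Ppp1r15a likewise (-0.27 and -0.33). The comparison with line 16 depended on single libraries: the ATF4 arm count of 8 fell to 1 without the t0 library of line 16 and to 2 without that of line 7, and was 3 without the t48 library of line 16. The ER arm count of 8 fell to 4 without any of the t0 or t6 libraries of lines 7 and 16 or the t48 library of line 16. Against line 6 the ATF4 arm count of 2 was 7 without the t48 library of line 7 and 1 without the t0 library of line 6 or line 7. The ER arm count of 5 was 3 without the t0 or the t48 library of line 6. Of all genes 11.6 to 19% were called in those fits against line 16, beside 22.6% in the main fit. Against line 6 it was 4.58 to 9.23%, beside 11.1%. Between LacZ lines 12 and 10, 0 of 46 members passed by edgeR, beside 0.123% of all genes, and 14 had an unadjusted p below 0.05. By DESeq2 3 members and 0.345% of all genes were called.

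Further genes of the same pathways were counted by list. Over all genes, 28.2% were called between NLS t48 and t6 (14.6% higher) and 26.1% between t48 and t0 (14.8% higher). Of 18 further ATF4 targets that were tested, 8 rose and 1 fell between NLS t48 and t6, and 5 rose and 1 fell between t48 and t0. Fgf21, a secreted hormone, was at 2.40, 2.04 and 3.03 CPM at t48 and at 0.443, 0.262 and 0.575 CPM at t0 (2.53 ± 0.33, adjusted p = 0.0001005), and at 0.611 and 0.358 CPM against 1.23 and 1.199 CPM in the LacZ lines (-1.32 ± 0.43, adjusted p = 0.0474). The response differed between constructs (adjusted p = 0.000272), at few reads. Of 15 further cytosolic tRNA synthetases 4 rose and 2 fell between t48 and t6, and 5 rose and 2 fell between t48 and t0. Dars (0.30) and Eprs (0.30) rose and Rars (-0.24) and Qars (-0.23) fell between t48 and t0, so the synthetases did not move as 1 group. Of the 8 eIF2 kinase and phosphatase genes Ppp1r15b, the constitutive counterpart of Ppp1r15a, rose (0.26, adjusted p = 0.00114) and Impact, an inhibitor of the kinase GCN2, fell (-0.68, adjusted p = 4.07e-06) between t48 and t0.

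Of 13 further ER chaperones and redox enzymes, 2 rose and 0 fell between NLS t48 and t0, where 26.1% of all genes were called, and 4 rose and 2 fell between t48 and t6, where 28.2% were. Pdia3, a disulfide isomerase of glycoproteins, was at 1049, 1053 and 1037 CPM at t48 and at 846, 874 and 840.2 CPM at t0 (0.29 ± 0.04, adjusted p = 0.000281). Of 12 further ER degradation genes and sensors that were tested, 6 rose and 0 fell between t48 and t6, among them Derl1 (0.30, adjusted p = 0.000782), a channel component of ER degradation, and Selenos (0.27, adjusted p = 0.00843). Between t48 and t0, 2 rose and 0 fell, Selenos (0.36) and Edem3 (0.21).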

How the data were processed

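Mouse melanoma cell lines were profiled by paired-end sequencing of stranded mRNA libraries after Trizol extraction, per the labels' protocols. Salmon 1.2.0 and the GRCm38 build are named in the submitters' processing notes. The authors deposited 13 transcript tables with expected counts (estimated reads) and TPM (a level per transcript length). The strand setting of the counting is not given in the sources used here, and 13 members overlap another coding gene, so reads in such overlaps may be shared.

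Transcripts were matched by ID to GENCODE vM21, and the deposited estimated counts were summed to genes and rounded. CPM were computed from the deposited counts on TMM-scaled library sizes. edgeR 4.0.16 in R 4.3.3 was run with its expression filter, TMM and the robust quasi-likelihood test, in 1 fit of 5 group means over 13 libraries (8 residual degrees of freedom). Cell lines were compared in a fit with time label as a block (5 residual degrees of freedom). Adjusted p-values are Benjamini-Hochberg over 13044 genes with a threshold of 0.05, and the 10 comparisons were adjusted apart. Scripts were tested on simulated data. No 2 libraries of a group were alike within sampling noise.

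Same-numbered libraries come from the same cell line and so are paired. Correlations of deviations from group means were 0.025 to 0.282 between NLS libraries of the same line (9 pairs, median 0.179) and -0.263 to 0.0524 between lines, and -0.0201 in the LacZ lines. Promoter windows are RefSeq's, of GRCm38.p6. Estimated reads per library give counting error only.

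Members and gene lists were chosen with earlier results of these data known. Any of the 46 members could be named, and of the other lists up to 3 higher and 3 lower genes with the smallest p past the threshold per comparison. Alternatives were DESeq2 1.42.0, its size factors in edgeR, no filter, only the libraries compared, the block, and libraries or lines left out. The whole lines left out were NLS lines 6 and 16.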

Additional observations from a re-analysis of the deposited data

Results flagged for a closer look

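The t48 response is the log2 fold change between t48 and t0. It differed between the NLS and LacZ lines for 8 of the 46 members, beside 23.3% of all genes called. The test was the interaction (edgeR quasi-likelihood, Benjamini-Hochberg over all genes). The value given is the NLS response minus the LacZ response. In the ATF4 arm it was 0.58 for Atf5 (0.49 in NLS, -0.09 in LacZ), -0.48 for Psat1 (-0.08 in NLS, 0.40 in LacZ) and -0.41 for Mars1 (-0.20 in NLS, 0.21 in LacZ). In the ER arm it was -0.60 for Sdf2l1 (-0.22 in NLS, 0.38 in LacZ), 0.32 for Pdia4 (0.33 in NLS, 0.01 in LacZ) and 0.47 for Sel1l (0.08 in NLS, -0.39 in LacZ). For the sensors it was 0.82 for Atf6 (0.53 in NLS, -0.30 in LacZ) and -0.69 for Ern1 (-0.44 in NLS, 0.25 in LacZ).

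Psat1, Mars1, Sdf2l1, Atf6 and Ern1 kept the call in all 10 fits that left out 1 library. Atf5 lost it in 4 (highest adjusted p 0.126, without the t48 library of LacZ line 12), Pdia4 in 2 (0.0651, without the t48 library of LacZ line 10) and Sel1l in 2 (0.0605, without the t0 library of LacZ line 12). Adcy10 did not follow the time labels in the NLS lines, and its part in these differences was not tested.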

How the results depend on the processing

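Counts of members called are given as ATF4 arm and ER arm. For NLS t6 against t0 (6 and 4) they were 11 and 11 with the cell line block, 3 and 2 with only the libraries compared, 1 and 1 without line 16, 0 and 0 without line 6, and 3 to 13 and 1 to 6 with single libraries left out, and DESeq2 gave 10 in the ATF4 arm. For t48 against t0 (4 and 5) they were 8 and 8 with the block, 2 and 2 without line 6, 3 in the ER arm without line 16, and 3 to 5 and 3 to 6 with single libraries left out. For t48 against t6 (14 and 10) they were 6 and 5 without line 16, 4 and 4 without line 6, and 6 to 12 and 5 to 10 with single libraries left out. For LacZ t48 against t0 (5 and 4) the ER arm had 8 with the block and 2 with no filter, and single libraries left out gave 1 to 4 and 0 to 2. For the interaction (3 and 5) the ATF4 arm had 7 with the block, and single libraries left out gave 2 to 4 and 3 to 5.

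For NLS t0 against LacZ t0 (13 and 9) the ER arm had 5 with only the libraries compared and 3 without line 6, and single libraries left out gave 6 to 16 and 4 to 9. No paired analysis was possible for it because each cell line carries 1 construct. Between lines, without the time block 0 and 0 were called. For line 7 against 16 (8 and 8) DESeq2 gave 4 in the ER arm and single libraries left out 1 to 8 and 4 to 6. For line 7 against 6 (2 and 5) the ATF4 arm had 4 with no filter, the ER arm 3 by DESeq2, and single libraries left out gave 1 to 7 and 3 to 5. For LacZ line 12 against 10 (0 and 0) DESeq2 gave 3 in the ATF4 arm, only the libraries compared gave 3 and 2, no filter 1 in the ER arm, and single libraries left out 0 to 1 and 0 to 0. For line 6 against 16 they gave 0 to 0. No member reversed its direction in a called result. Where a fit left 1 library in a group, that library was assumed to vary like the other groups. The cause of these shifts was not tested.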

Other observations

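Of 9 tested cytosolic heat shock genes, which answer misfolded proteins outside the ER, 1 rose and 3 fell between NLS t48 and t0 (edgeR quasi-likelihood test, Benjamini-Hochberg), where 26.1% of all genes were called. Hspa1a, the inducible HSP70 gene, rose by 1.07 on the log2 scale, and Dnajb1 (-0.30), Hsp90aa1 (-0.25) and Hsp90ab1 (-0.15) fell. Between t48 and t6, 1 rose and 1 fell, where 28.2% of all genes were called, and between t6 and t0 0 passed by edgeR or DESeq2, with 0 at an unadjusted p below 0.05. In the LacZ lines Hsp90ab1 was the 1 that rose between t48 and t0 (0.33), and its response differed between the constructs by -0.48. Between NLS t0 and LacZ t0, 7 of the 9 were higher and 0 lower, where 43.5% of all genes were called.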
